A study of Mus musculus with 33 samples.

Results

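The 10 genes described here encode the antigen-presenting molecules of MHC class I and the machinery that loads them with peptide. They were chosen by symbol, as every probe annotated to H2-K1, H2-D1, H2-Q7, H2-T23, H2-M3, B2m, Tap1, Tap2, Tapbp or Erap1. All 10 had a probe in bone marrow-derived macrophages (BMDM), 16 probes in all, and all 10 were among the 9161 genes tested there. In mouse embryonic fibroblasts (MEF) 9 of the 10 had a probe (12 probes), and 8 were among the 9109 genes tested. H2-Q7 had no probe in the MEF set. The H2-D1 probe of the MEF set was above background on 1 of 10 arrays, and H2-D1 was therefore not tested there.

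A class I molecule is a heavy chain paired with beta-2-microglobulin, and it shows peptides from the cell's own proteins to CD8+ T cells and natural killer cells. Peptides made by the proteasome are pumped into the endoplasmic reticulum by the TAP transporter, trimmed by the aminopeptidase ERAP1 and fitted to the heavy chain with the help of tapasin. Type I interferon, which macrophages release and sense after contact with lipopolysaccharide (LPS), is a classical inducer of these genes, and NF-kB and interferon regulatory factors (IRF) bind next to each other in the promoters of classical class I genes.

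The promoter stretches that carry both kinds of letters are shown first, because the study concerns an NF-kB subunit at interferon-response elements. RefSeq promoter windows of build GRCm38.p6 run from 250 bases before to 50 bases after the start site, 300 bases in all, and 9 of the 10 members had one. The windows were searched on both strands for the NF-kB consensus, for an IRF element (AANNGAAA) and for the interferon-stimulated response element (ISRE), which reads GAAA, any 2 bases and GAAA again. Each ISRE match also holds an IRF element. The stretches of H2-K1 (chr17:34000409-34000468, minus strand), H2-D1 (chr17:35262913-35262972, plus strand), H2-Q7 (chr17:35439012-35439071, plus strand) and H2-M3 (chr17:37270098-37270157, plus strand) each hold an NF-kB match followed by an IRF match, in capitals. They are written in the direction of the gene, 5′ to 3′.
H2-K1: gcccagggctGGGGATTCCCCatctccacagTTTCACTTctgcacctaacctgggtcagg
H2-D1: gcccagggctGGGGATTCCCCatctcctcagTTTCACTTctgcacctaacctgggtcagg
H2-Q7: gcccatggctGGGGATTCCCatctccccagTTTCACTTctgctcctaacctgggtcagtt
H2-M3: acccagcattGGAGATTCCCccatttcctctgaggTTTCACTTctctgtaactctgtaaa

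B2m (chr2:122147538-122147597, plus strand) holds an ISRE followed by an NF-kB match, and H2-T23 (chr17:36032776-36032835, minus strand) holds an ISRE and no NF-kB match. Capitals again mark the matches.
B2m: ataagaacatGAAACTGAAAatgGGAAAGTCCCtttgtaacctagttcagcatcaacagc
H2-T23: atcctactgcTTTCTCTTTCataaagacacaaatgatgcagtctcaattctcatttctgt

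An NF-kB and an IRF match with starts at most 30 bases apart stood in 5 of the 9 members' windows (H2-K1, H2-D1, H2-Q7, H2-M3 and B2m) and in 0.25% of all 32851 windows. The limit of 30 bases was chosen after the positions were seen, and the heavy-chain genes are related copies whose promoters share sequence. Taken singly, the NF-kB consensus was in 5 members' windows and 8.46% of all windows, the IRF element in 7 and 23.9%, and the ISRE in 3 (B2m, H2-T23 and Erap1) and 3.44%. The windows of Tap1 and Tapbp held no match to any of these letters. The Tap1 window (chr17:34187306-34187605, plus strand) is printed because Tap1 was the member with the largest rise in WT macrophages. It shares 275 bases with the window of Psmb9, an immunoproteasome subunit read from the other strand.
Tap1: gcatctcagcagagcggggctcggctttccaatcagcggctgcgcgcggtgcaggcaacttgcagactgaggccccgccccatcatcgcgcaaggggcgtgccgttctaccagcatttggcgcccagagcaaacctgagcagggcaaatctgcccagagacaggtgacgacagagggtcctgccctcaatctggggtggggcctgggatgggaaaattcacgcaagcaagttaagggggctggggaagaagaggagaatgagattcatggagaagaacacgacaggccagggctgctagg

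The series holds 33 bead arrays with RNA from C57BL/6 cells. Macrophages were grown from bone marrow in medium conditioned by L929 cells and were wild type (WT, 11 arrays), deficient in p50 of NF-kB (p50KO, 10 arrays) or without the type I interferon receptor (IFNARKO, 2 arrays). WT and p50KO macrophages were unstimulated or received LPS, CpG or interferon beta (IFNb) for 1, 3 or 8 h, and IFNARKO macrophages were unstimulated or received LPS for 3 h. MEF were primary cells, WT (6 arrays) or p50KO (4 arrays), unstimulated or given LPS for 1, 3 or 8 h, and WT MEF also received IFNb for 8 h. The title of the series puts the question whether p50 represses genes with interferon-response elements. Doses, ages and the form of the deletions are not given in the labels, which also do not say whether arrays came from separate animals or cultures. The p-values therefore cannot be read as a spread between animals. With 1 array for each stimulated condition and genotype, their error is how much the genotype difference varies between conditions. In the fits by agent it is how much that difference varies between times. This spread may be technical, and it also holds any p50 effect that varies with condition.

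Each agent, time and genotype had 1 array. WT unstimulated cells had 2, from different label series. In BMDM these were the CpG series and the LPS series, and the LPS-series array was also the only unstimulated array for IFNb. The p50KO unstimulated macrophage array belonged to the CpG series. Levels below are log2 normalized intensities, and a probe is called above background where its detection p was under 0.01. In BMDM 10456 to 12273 probes were above background per array. Of the macrophage markers 6 of 6 with a probe were above background on all BMDM arrays, while 6 of 8 fibroblast markers were above it on none (Col1a1, Col3a1, Pdgfra, Pdgfrb, Thy1 and Lum). In MEF 8 of 8 fibroblast markers were above background on all arrays, and so were 4 of 6 macrophage markers with a probe, with Itgam above it on none. In these bulk samples fewer cells of a type and less RNA per cell cannot be told apart. The Ifnar1 probe was above background on 0 of 33 arrays, so it does not check the IFNARKO label, and the p50 transcript was not analysed here.

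Some arrays stood apart from their labels or their group. Over 12 immediate-early genes, which rise and fall within hours of LPS, the array labelled p50KO LPS 1 h differed from WT LPS 3 h by 0.54 on the log2 scale (root mean square over the genes) and from WT LPS 1 h by 2.39. Over the 10 members these distances were 0.34 and 1.38, so that the WT array of the later time was again the nearer. The distances over the members hold the p50KO minus WT differences described below, so they are no separate check of a label. For the array labelled p50KO LPS 3 h, WT at 8 h was nearer than WT at 3 h over the members (0.36 against 1.24), but not over the immediate-early genes (0.92 against 0.65). Where leaving out one of them moved a count or a median given here by over 1.5 times, the value without it is given too. Where 1 array was then left at a time, the text on that time gives differences and no count. In MEF the p50KO arrays had 11746 to 12399 probes above background, against 8277 to 8970 in WT of the LPS series and 10048 to 10099 in WT of the IFNb series.

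LPS raised most of the members in macrophages within 8 h. The largest fitted rises at 8 h were those of Tapbp, Tap1 and Tap2, and the smallest among the members that passed was that of B2m. In WT cells Tap1, which encodes a subunit of the peptide transporter, read 6.34 unstimulated, 6.22 at 1 h, 9.27 at 3 h and 10.42 at 8 h. Its level did not move in the first hour and then climbed at both later times. Tapbp, which encodes tapasin, read 6.73, 8.12, 9.61 and 10.74 at the same times and had already left its unstimulated level at 1 h. Tap2, the other transporter subunit, read 9.13, 9.16, 10.54 and 11.91. The p50KO arrays labelled LPS 1, 3 and 8 h read 9.11, 10.38 and 9.44 for Tap1, and 10.67, 12.17 and 12.42 for Tap2. For Tap1 all 3 lay above the WT unstimulated and 1 h arrays, and the highest of them was the array labelled 3 h.

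**Figure D1:**
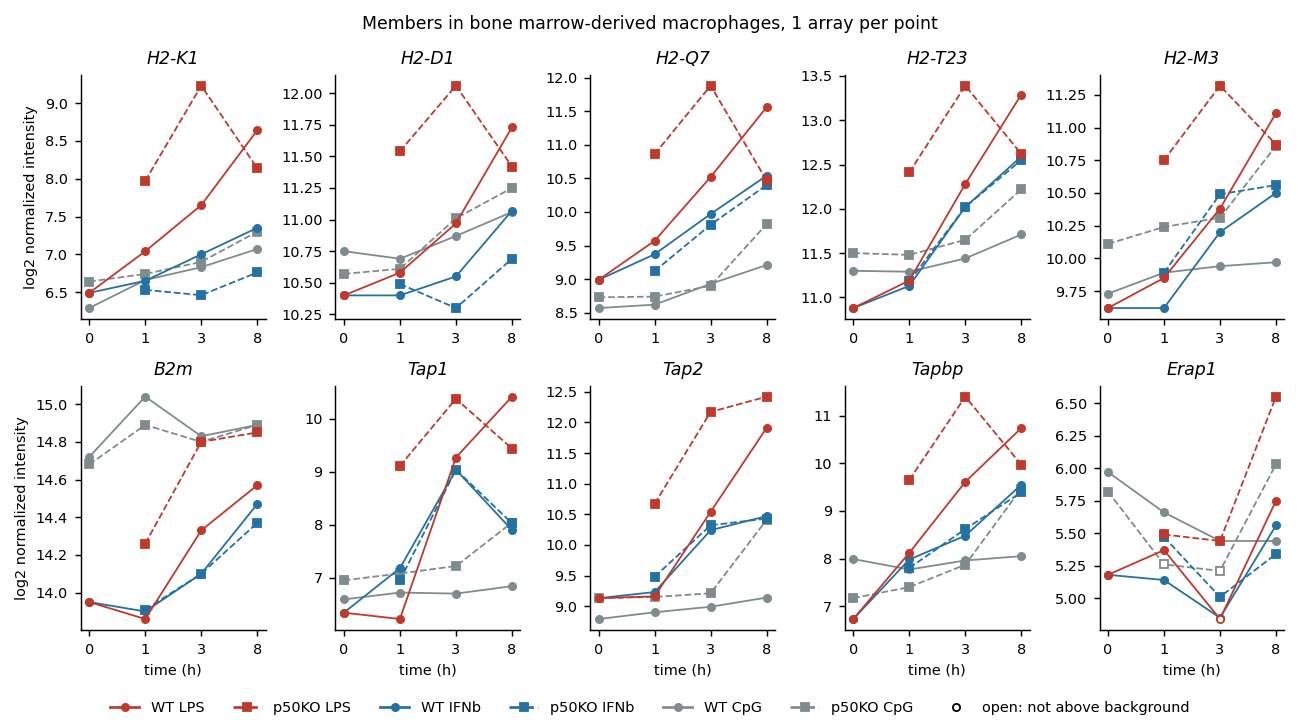
Log2 normalized intensity of the 10 members in macrophages against time in hours, 1 array per point, with WT as circles and solid lines, p50KO as squares and dashed lines, and LPS, IFNb and CpG in red, blue and grey; open points were not above background. WT LPS points climbed to 8 h for most members (Tap1 from 6.34 to 10.42), p50KO LPS points peaked at the array labelled 3 h for 7 of them, and CpG points stayed low until p50KO at 8 h.

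The responses were tested with WT and p50KO arrays together, so that the genotypes form the pair behind each stimulated time. The LPS and IFNb baseline had no such pair, because unstimulated p50KO cells were measured only under the CpG label. With array series in the fit, that baseline rested on 1 WT array. All LPS and IFNb differences from baseline therefore share the error of this array. At 1 h of LPS 0 of 10 members passed an adjusted p of 0.05, beside 0.873% of all genes higher and 0.426% lower, and the members' median difference was 0.69, or 0.21 without the array labelled p50KO LPS 1 h. At 3 h 6 of 10 were higher, beside 5.91% of the 9161 genes higher and 7.51% lower, with a median of 1.85 for the members and -0.12 for all genes. At 8 h 8 of 10 were higher, beside 12.3% of all genes higher and 18.2% lower, with a median of 1.87 against -0.09. Beside this, markers of dendritic cells and MHC class II were higher for 4 of 5 at 3 h and 5 of 5 at 8 h, where Ciita rose by 2.20 and H2-Ab1 by 1.37, with Itgax and Flt3 above background on no array, and their part in the result was not tested. No member was lower at any of these times. Of all genes, 919 at 1 h had an unadjusted p under 0.05, and 1 of them was a member.

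At 8 h of LPS the fitted rise of Tapbp was 3.50 ± 0.72 (log2 ± SE, limma adjusted p = 0.00454), an 11.3-fold difference. Tap1 rose by 3.32 ± 0.77 (adjusted p = 0.00726), or 9.99-fold, and Tap2 by 2.73 ± 0.48 (adjusted p = 0.00244), or 6.64-fold. Erap1, the trimming aminopeptidase, differed by 0.89 ± 0.34, which did not pass (adjusted p = 0.0609). Its WT levels were 5.18, 5.37, 4.84 and 5.75 at 0, 1, 3 and 8 h, and at 3 h it was not above background. Its 8 h level lay above the 3 earlier WT arrays by less than 1 log2 unit. Without the p50KO array labelled LPS 3 h, 10 of 10 members passed at 8 h, beside 1332 genes higher and 1950 lower of 9161. Without that labelled LPS 1 h, 9 did, beside 1258 genes higher and 1867 lower.

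Among the heavy chains, H2-T23 encodes Qa-1, a nonclassical molecule read by natural killer cell receptors. It read 10.88, 11.19, 12.28 and 13.29 in WT cells at 0, 1, 3 and 8 h of LPS, and its fitted rise at 8 h was 1.94 ± 0.43 (adjusted p = 0.00613). H2-Q7, a Qa-2 heavy chain, read 8.99, 9.57, 10.52 and 11.56 and rose by 1.93 ± 0.56 (adjusted p = 0.020). H2-K1, a classical heavy chain that presents to CD8+ T cells, read 6.49, 7.04, 7.65 and 8.64 and rose by 1.82 ± 0.52 (adjusted p = 0.0195). Each of these 3 genes climbed step by step over the 4 WT arrays. H2-M3, which presents N-formylated peptides of bacterial or mitochondrial origin, went from 9.62 to 11.11 in WT and rose by 1.15 ± 0.32 (adjusted p = 0.0168). H2-D1, the other classical heavy chain, went from 10.40 to 11.73 in WT, and its fitted difference of 1.11 ± 0.40 missed the threshold (adjusted p = 0.0527).

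B2m, the light chain shared by all class I molecules, read 13.95, 13.86, 14.33 and 14.57 in WT cells. Its fitted rise at 8 h was 0.72 ± 0.22 (adjusted p = 0.0249), the smallest of the members that passed. The B2m probe was among the 81 brightest of 25697 probes on every BMDM array. Array signals can flatten at that brightness, and this was not tested.

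At 3 h of LPS the 6 members that rose were Tapbp (3.65 ± 0.72, adjusted p = 0.0113), Tap1 (3.21 ± 0.77, adjusted p = 0.0225), H2-Q7 (2.12 ± 0.56, adjusted p = 0.0291), Tap2 (1.92 ± 0.48, adjusted p = 0.0249), H2-K1 (1.88 ± 0.52, adjusted p = 0.0354) and H2-T23 (1.81 ± 0.43, adjusted p = 0.0225). H2-D1 at 1.05, H2-M3 at 1.02 and B2m at 0.58 did not pass. Leaving out the p50KO array labelled LPS 3 h leaves WT alone at that time, so only differences are given. The count of 6 depended on that array, and each of these 6 differences was smaller without it. They were 2.87 for Tapbp, 2.92 for Tap1, 1.53 for H2-Q7, 1.41 for Tap2, 1.16 for H2-K1 and 1.40 for H2-T23. Without the array labelled p50KO LPS 1 h, 8 members passed, beside 751 genes higher and 1070 lower of 9161. The WT arrays alone, with no test, put the 3 h difference at 2.92 for Tap1, 2.87 for Tapbp and 0.75 for H2-M3.

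Under IFNb the WT macrophage arrays showed differences below those of LPS for all 10 members at 8 h, while at 1 h that of Tap1 was 0.84 with IFNb and -0.13 with LPS. Tap1 read 7.18 at 1 h, 9.04 at 3 h and 7.90 at 8 h of IFNb, above its 6.34 in unstimulated cells. It was highest at 3 h, while Tapbp was highest at 8 h, with readings of 7.98, 8.48 and 9.55. H2-T23 read 11.13, 12.02 and 12.59 and H2-Q7 9.37, 9.97 and 10.54. In WT at 8 h the members' median difference was 1.10 for IFNb, and 5 of 10 were at least 2-fold higher, beside 1.33% of all genes. For LPS at 8 h the median was 2.28 and 8 of 10 were at least 2-fold higher, beside 11.2% of all genes. These WT values compare single arrays that share 1 unstimulated array and carry no test.

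In the fit over both genotypes 0 of 10 members passed at 1, 3 or 8 h of IFNb. All genes gave 0%, 0.0327% and 0% higher at these times, so that limma called 0 genes at 8 h, where 286 had an unadjusted p under 0.05 and 3 of these were members. Tapbp differed by 2.61 ± 0.72 at 8 h (adjusted p = 0.999), H2-T23 by 1.55 ± 0.43 (adjusted p = 0.999) and Tap1 by 2.43 ± 0.77 at 3 h (adjusted p = 0.607). Without the array labelled p50KO LPS 1 h, Tap1 passed at 3 h (2.56, adjusted p = 0.0247), beside 101 genes higher and 7 lower. The error of this fit includes the spread between the LPS arrays of the genotypes. With the LPS-stimulated arrays left out, a choice made after seeing the data, 3 members passed at 8 h, beside 66 genes higher and 28 lower of 9161. They were Tapbp (2.74, adjusted p = 0.0204), H2-T23 (1.61, adjusted p = 0.00252) and H2-Q7 (1.46, adjusted p = 0.0147). At 3 h 2 members then passed, beside 267 genes higher and 124 lower, Tap1 (2.53, adjusted p = 0.00125) and H2-T23 (1.06, adjusted p = 0.00524).

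LPS and IFNb at 8 h were also compared directly, a contrast that needs no unstimulated array. All 10 differences were positive, and 3 of 10 passed as higher under LPS, beside 17.4% of all genes higher and 24% lower. The markers of dendritic cells and MHC class II were higher under LPS for 5 of 5 tested, with Itgax and Flt3 above background on no array, and their part was not tested. Tap2 was higher under LPS by 1.72 ± 0.39 (adjusted p = 0.00376), Tap1 by 1.97 ± 0.62 (adjusted p = 0.0228) and H2-K1 by 1.34 ± 0.42 (adjusted p = 0.0221). The differences of H2-T23 (0.39 ± 0.35, adjusted p = 0.404), H2-Q7 (0.54 ± 0.45, adjusted p = 0.361) and H2-M3 (0.46 ± 0.26, adjusted p = 0.171) did not pass. Those of Tapbp (0.88 ± 0.58, adjusted p = 0.246), B2m (0.29 ± 0.18, adjusted p = 0.209), H2-D1 (0.69 ± 0.32, adjusted p = 0.105) and Erap1 (0.70 ± 0.27, adjusted p = 0.0529) did not either. The count of 3 became 6 with each array scaled to its median instead of quantile normalized, beside 1784 genes higher and 1552 lower of 9161. With no filter on detection it became 1, beside 1508 higher and 2063 lower of 16593. Without the p50KO array labelled LPS 3 h it became 5, beside 1772 higher and 2380 lower of 9161.

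**Figure D2:**
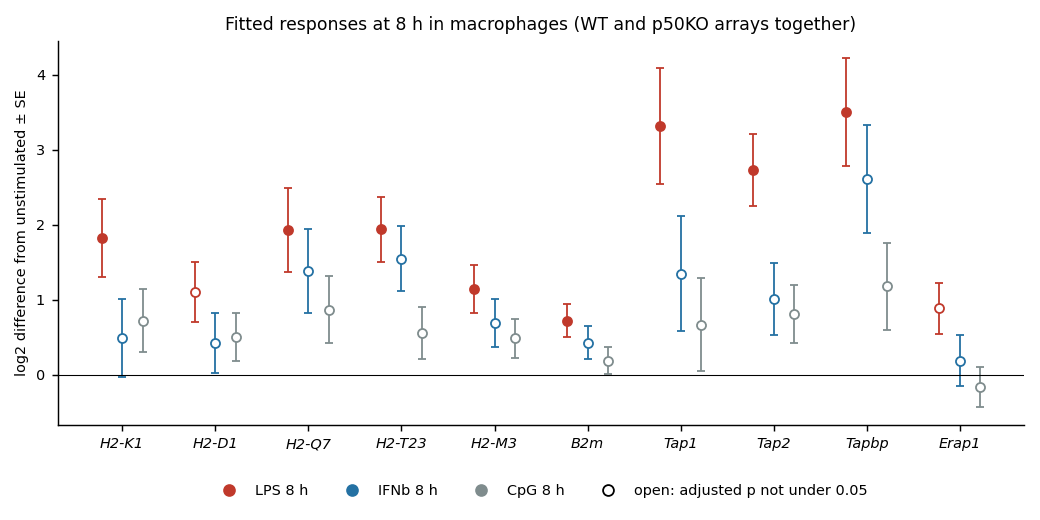
Fitted log2 difference from unstimulated (y axis, points, with SE as bars) at 8 h of LPS (red), IFNb (blue) and CpG (grey) for each member in macrophages, from the fit over WT and p50KO arrays; filled points passed an adjusted p of 0.05. The 8 filled points are all LPS, and Tapbp (3.50), Tap1 (3.32) and Tap2 (2.73) are the highest.

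CpG, a mimic of microbial DNA, moved the members little in WT macrophages, where 0 of 10 were at least 2-fold higher or lower at 3 h (beside 0.426% and 0.0109% of all genes) or at 8 h (beside 0.884% and 0.12%). Tap1 read 6.59, 6.72, 6.70 and 6.84 at 0, 1, 3 and 8 h in WT and 6.95, 7.08, 7.22 and 8.04 in p50KO. Tap2 read 8.79, 8.90, 8.99 and 9.14 in WT and 9.13, 9.15, 9.21 and 10.41 in p50KO. The WT series were nearly flat, while the p50KO 8 h array stood above every earlier p50KO array. In the fit 0 of 10 members passed at 1, 3 or 8 h, beside 0%, 0.0546% and 0.207% of all genes higher and 0%, 0% and 0.0109% lower, and the unadjusted p was under 0.05 for 47, 162 and 416 genes, none of them a member. The largest differences at 8 h were those of Tapbp (1.18 ± 0.58), H2-Q7 (0.87 ± 0.45) and Tap2 (0.81 ± 0.39), each with an adjusted p of 0.998. With the LPS-stimulated arrays left out, H2-Q7 passed at 8 h (0.87, adjusted p = 0.0304), beside 151 genes higher and 71 lower.

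IFNARKO macrophages had lower resting levels of most members and showed almost none of the Tap1 induction. Tap1 read 5.19 unstimulated and 5.32 at 3 h of LPS in IFNARKO, against 6.34 and 9.27 in WT. In IFNARKO the level after LPS lay below that of unstimulated WT cells. H2-T23 read 9.46 and 10.07 against 10.88 and 12.28, and H2-Q7 7.30 and 8.29 against 8.99 and 10.52. Tapbp read 5.83 and 7.50 against 6.73 and 9.61. Tapbp thus kept a visible induction without the receptor, from a lower start. H2-D1 read 9.37 and 10.03 against 10.40 and 10.97, and Tap2 9.55 and 10.04 against 9.13 and 10.54. Tap2 and Erap1, at 5.40 and 5.51, were the only members whose unstimulated level was above that of WT by the probe used here.

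With 1 array per group these IFNARKO values carry no test. Unstimulated, 5 of 10 members were at least 2-fold lower in IFNARKO, beside 3.86% of all genes, with a median difference of -0.96 against 0.01. The members at least 2-fold lower were H2-Q7 (-1.69), H2-T23 (-1.42), H2-K1 (-1.16), Tap1 (-1.15) and H2-D1 (-1.03). A second H2-K1 probe went the other way (1.14), so the H2-K1 value holds for the brighter probe alone. For scale, the 2 unstimulated WT macrophage arrays, CpG series minus LPS series, differed by -0.42 to 1.26 over the members. Between these arrays 1 of 10 members was at least 2-fold higher and 0 lower, beside 3.94% and 2.14% of all genes. LPS at 3 h raised 1 of 10 members at least 2-fold in IFNARKO (Tapbp, 1.66), beside 5.24% of all genes, and 6 of 10 in WT, beside 6.7%. The induction, LPS minus unstimulated, was lower in IFNARKO than in WT by at least 2-fold for 2 of 10 members, beside 2.53% of all genes. These were Tap1 (-2.79) and Tapbp (-1.21), and the member nearest below 2-fold was Tap2 (-0.92). The induction of H2-D1 was 0.66 in IFNARKO and 0.57 in WT. The summed level of 6 macrophage markers was 15.67 to 15.96 on the IFNARKO arrays and 15.4 to 15.77 on the 13 WT and p50KO arrays of the LPS and IFNb series. The 5 tested markers of dendritic cells and MHC class II summed to 10.13 to 11.07 and 10.52 to 12.75, with Itgax and Flt3 above background on no array, and the part of such cells in the result was not tested.

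**Figure D3:**
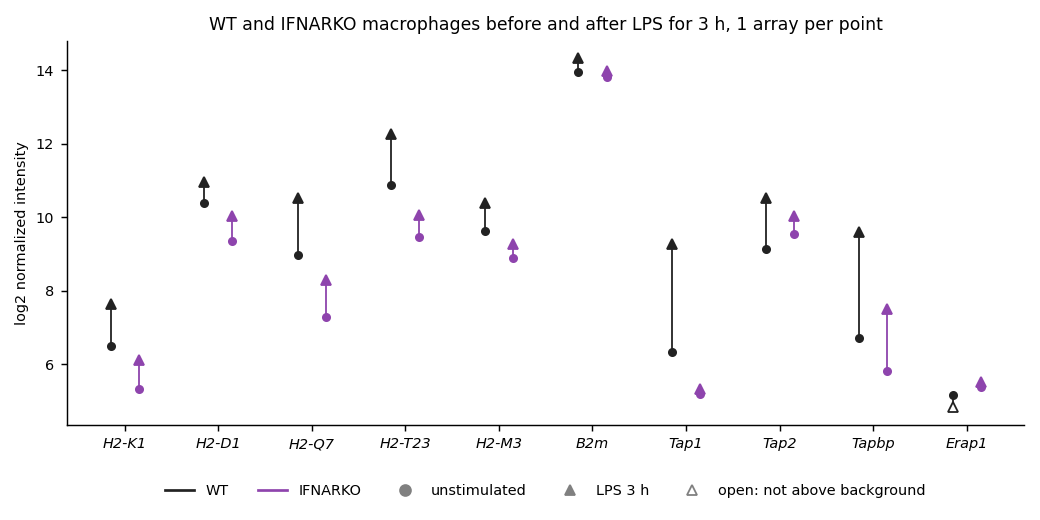
Log2 normalized intensity (y axis) of each member in WT (black) and IFNARKO (purple) macrophages, unstimulated (circles) and after 3 h of LPS (triangles), joined by a line, 1 array per point; the open point was not above background. The Tap1 line runs from 6.34 to 9.27 in WT and from 5.19 to 5.32 in IFNARKO.

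Loss of p50 was not accompanied by a common shift of the members over all conditions. Over the 10 matched macrophage conditions 0 of 10 members passed, beside 0.175% of all genes higher and 0.306% lower, although all 10 fitted differences were positive with a median of 0.22. That median was 0.14 without the array labelled p50KO LPS 1 h, 0.10 without that labelled 3 h and 0.03 without the LPS-stimulated arrays. Tap2 differed by 0.61 ± 0.17 (limma adjusted p = 0.137), H2-M3 by 0.42 ± 0.12 (adjusted p = 0.132) and Tap1 by 0.54 ± 0.28 (adjusted p = 0.373). The values for each pair of arrays follow by agent and time.

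Under LPS the p50KO arrays labelled 1 and 3 h stood above WT for every member, and that labelled 8 h stood below WT for 7 of 10. The difference for Tap1 was 2.90, 1.11 and -0.98 at 1, 3 and 8 h, that for H2-Q7 1.28, 1.35 and -1.09, and that for Tapbp 1.53, 1.80 and -0.76. Tap2 (1.51, 1.63 and 0.51), B2m (0.40, 0.47 and 0.28) and Erap1 (0.11, 0.60 and 0.80) stayed above WT at all 3 times. At 1 h 5 of 10 members were at least 2-fold higher, beside 5.76% of all genes. At 3 h 7 of 10 were, beside 5.81%. At 8 h 0 were higher, beside 5.01%, and 1 was at least 2-fold lower (H2-Q7), beside 4.3%. The differences at 1 and 3 h rest on the 2 arrays set apart above. Over the immediate-early genes that labelled 1 h lay nearer to a later WT time and that labelled 3 h did not. The distances over the members are made of these same differences and cannot decide on either label. Set beside WT LPS 3 h instead, the array labelled p50KO LPS 1 h read 9.11 against 9.27 for Tap1, 10.67 against 10.54 for Tap2 and 9.65 against 9.61 for Tapbp.

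As a mean over the 3 LPS times, 1 of 10 members was higher in p50KO, beside 3.6% of all genes higher and 3.97% lower. This was Tap2, at 1.22 ± 0.25 (adjusted p = 0.0251), or 2.33-fold. Without the array labelled p50KO LPS 1 h the Tap2 difference was 1.07 (adjusted p = 0.0622), and without that labelled 3 h it was 1.01 (adjusted p = 0.0688). So 0 members passed in either case, beside 411 genes higher and 393 lower in the first and 365 higher and 341 lower in the second. The Tap1 difference was 0.07 (adjusted p = 0.937) without the array labelled 1 h, against 1.01 with it. Without the 8 h arrays of both genotypes 8 of 10 members passed, beside 383 genes higher and 374 lower of 9161, with Tap2 at 1.57 (adjusted p = 0.00583). The other differences over LPS, none of which passed, were 1.01 ± 0.53 for Tap1, 0.86 ± 0.46 for Tapbp, 0.67 ± 0.31 for H2-K1, 0.58 ± 0.24 for H2-D1, 0.56 ± 0.30 for H2-T23, 0.53 ± 0.22 for H2-M3, 0.52 ± 0.39 for H2-Q7, 0.50 ± 0.21 for Erap1 and 0.38 ± 0.11 for B2m. Their adjusted p lay between that of B2m (0.0654) and that of H2-Q7 (0.437). Beside these results, the summed level of 5 markers of dendritic cells and MHC class II was 12.14 to 12.75 on the p50KO LPS arrays and 11.55 to 12.03 on the WT ones, without overlap. Itgax and Flt3, above background on no array, were not among these 5. The summed level of 5 granulocyte markers was 12.79 to 13.46 on the p50KO LPS arrays and 12.97 to 13.81 on the WT ones. Their part in the result was not tested.

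**Figure D4:**
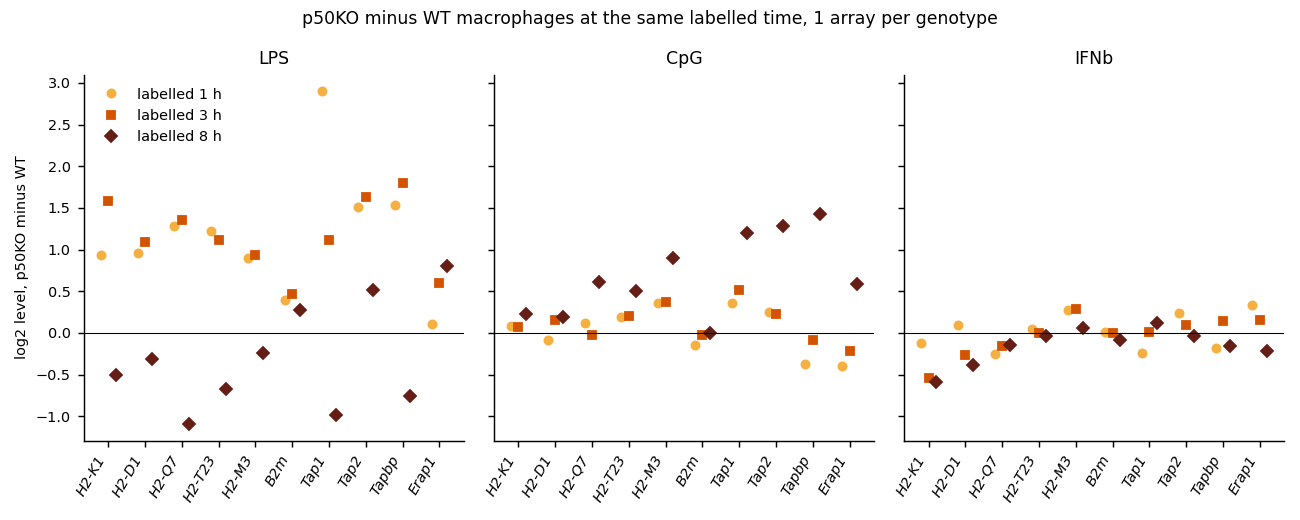
Log2 level in p50KO minus WT macrophages (y axis) for each member under LPS, CpG and IFNb, with circles, squares and diamonds for arrays labelled 1, 3 and 8 h and 1 array per genotype behind each point. Under LPS the 1 and 3 h points lie above 0 and most 8 h points below it, under CpG the 8 h points of Tapbp (1.43), Tap2 (1.28) and Tap1 (1.20) stand out, and under IFNb all points lie between -0.59 and 0.33.

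Under CpG the p50KO and WT arrays were close at 1 and 3 h and parted at 8 h. The 8 h difference was 1.43 for Tapbp, 1.28 for Tap2, 1.20 for Tap1, 0.90 for H2-M3 and 0.61 for H2-Q7, while B2m did not differ (0.00). At 8 h 3 of 10 members were at least 2-fold higher in p50KO, beside 2.17% of all genes, and at 1 and 3 h 0 were, beside 0.448% and 0.982%. From its own unstimulated array, p50KO raised 4 of 10 members at least 2-fold by 8 h of CpG, beside 2.69% of all genes. These were Tapbp (2.30), Tap2 (1.28), Tap1 (1.09) and H2-Q7 (1.09), against 0.06, 0.35, 0.25 and 0.64 in WT. The unstimulated p50KO array started below WT by -0.81 for Tapbp and above it by 0.34 for Tap2, 0.36 for Tap1 and 0.16 for H2-Q7. As a mean over the CpG times 0 of 10 members passed, beside 0.295% of all genes higher. H2-M3 differed by 0.54 ± 0.22 (adjusted p = 0.694), Tap2 by 0.59 ± 0.25 (adjusted p = 0.710) and Tap1 by 0.69 ± 0.53 (adjusted p = 0.998). With the LPS-stimulated arrays left out, where 276 genes were higher and 210 lower of 9161, 2 members passed, Tap1 (0.69, adjusted p = 0.0309) and H2-M3 (0.54, adjusted p = 0.0347). The granulocyte markers summed to 10.92 to 11.31 on the p50KO CpG arrays and 9.95 to 10.32 on the WT ones, without overlap, and their part was not tested.

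Under IFNb the genotypes lay close together. Tap1 read 6.95, 9.04 and 8.03 in p50KO at 1, 3 and 8 h, against 7.18, 9.04 and 7.90 in WT. H2-T23 read 11.18, 12.02 and 12.55 against 11.13, 12.02 and 12.59. Both genes followed the same course in both genotypes. H2-K1 was lower in p50KO at each time, with differences of -0.12, -0.54 and -0.59. Over the IFNb times 0 of 10 members passed, beside 0.0546% of all genes higher and 0.109% lower, and the members' median difference was -0.03. The fitted differences were -0.42 ± 0.31 for H2-K1, 0.21 ± 0.22 for H2-M3 and 0.10 ± 0.25 for Tap2, each with an adjusted p of 1.00.

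Whether the p50 difference itself differed between LPS and IFNb was tested as an interaction. All 10 estimates were positive with a median of 0.73, but 0 of 10 passed, as did 0 of all genes (0%), and 1140 genes had an unadjusted p under 0.05, 4 of them members. Tap2 gave 1.12 ± 0.35 (adjusted p = 0.281), B2m 0.41 ± 0.16 (adjusted p = 0.338), H2-K1 1.09 ± 0.43 (adjusted p = 0.355) and H2-D1 0.76 ± 0.34 (adjusted p = 0.399). Between CpG and IFNb 0 of 10 members passed, beside 0.0437% of all genes higher. Without the array labelled p50KO LPS 1 h the LPS minus IFNb test called 57 genes higher and 65 lower, with 0 of the members among them and a members' median of 0.49. Without that labelled 3 h it called 6 higher and 10 lower, again with 0 members and a median of 0.41.

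In MEF, LPS raised 7 of the 8 tested members, between 1 and 8 h. Tap2 read 8.25, 8.44, 10.64 and 12.17 at 0, 1, 3 and 8 h in WT and 9.24, 9.16, 12.12 and 13.06 in p50KO. Both genotypes stood near their unstimulated level at 1 h, higher at 3 h and higher again at 8 h. H2-T23 read 6.67, 6.50, 7.43 and 9.61 in WT and 7.85, 7.80, 9.23 and 11.09 in p50KO. H2-K1 read 5.75, 6.05, 7.66 and 9.16 in WT, where the first 2 values were not above background, and 8.91, 9.09, 11.34 and 12.06 in p50KO. Every p50KO array was thus above the WT array of its time for H2-K1, H2-T23 and Tap2. Tap1 read 6.02, 6.04, 8.53 and 9.77 in WT, again with the first 2 not above background, and 5.13, 5.12, 8.37 and 9.32 in p50KO.

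**Figure D5:**
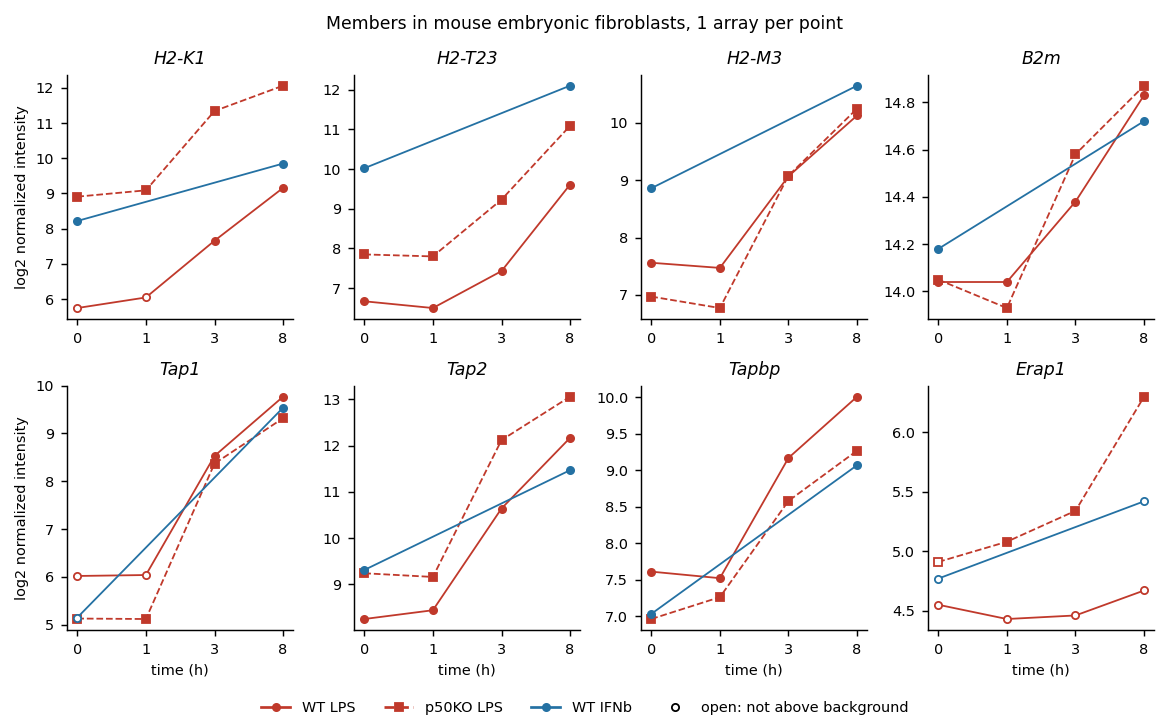
Log2 normalized intensity of the 8 tested members in MEF against time in hours, 1 array per point, for WT LPS (red circles, solid), p50KO LPS (red squares, dashed) and WT IFNb (blue); open points were not above background. LPS lines are flat to 1 h and then climb (Tap2 from 8.25 to 12.17 in WT), and the unstimulated WT arrays of the LPS and IFNb series start apart, at 6.67 and 10.02 for H2-T23.

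In the MEF fit 0 of 8 members passed at 1 h of LPS, beside 0.538% of all genes higher and 0.0439% lower, with an unadjusted p under 0.05 for 525 genes, none of them a member. At 3 h 7 of 8 were higher, beside 7.31% of all genes higher and 12% lower, with a median of 1.70. At 8 h 7 of 8 were higher, beside 12.6% higher and 23.8% lower, with a median of 3.01 against -0.10 for all genes. Tap1 rose by 3.97 ± 0.20 at 8 h (adjusted p = 2.32e-05), Tap2 by 3.87 ± 0.18 (adjusted p = 1.84e-05) and Tapbp by 2.36 ± 0.14 (adjusted p = 4.41e-05). The heavy chains rose by 3.28 ± 0.19 for H2-K1 (adjusted p = 3.88e-05), 3.09 ± 0.16 for H2-T23 (adjusted p = 2.73e-05) and 2.93 ± 0.22 for H2-M3 (adjusted p = 0.000119). B2m again rose least, by 0.80 ± 0.12 (adjusted p = 0.00215), and its probe was among the 98 brightest of 24613. Erap1 differed by 0.76 ± 0.27 (adjusted p = 0.0653) and was above background on none of the 4 WT arrays. Against the background bound of the unstimulated array, WT LPS 8 h was at least 8.76-fold higher for H2-K1 and at least 13.4-fold higher for Tap1. A second H2-K1 probe in MEF rose by 1.14 over the same 8 h in WT, against 3.41 for the probe used here, with r = 0.94 between them over 10 arrays.

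The unstimulated WT MEF array of the IFNb series differed from that of the LPS series by as much as LPS moved some members. H2-T23 read 10.02 against 6.67, H2-K1 8.22 against 5.75, H2-M3 8.86 against 7.56 and Tap2 9.31 against 8.25. Beside this, the 4 tested macrophage markers summed to 13.36 to 13.65 in WT of the IFNb series and 11.84 to 12.55 in WT of the LPS series, without overlap, and their part was not tested. With this array added as a second WT unstimulated array, 3 of 8 members passed at 3 h of LPS (Tap1, Tap2 and Tapbp), beside 284 genes higher and 144 lower of 9109. At 8 h 5 of 8 did, beside 588 genes higher and 509 lower. At 8 h H2-K1 (2.52, adjusted p = 0.0813) and H2-T23 (2.02, adjusted p = 0.259) then no longer passed, while Tap1 (4.20, adjusted p = 0.000559), Tap2 (3.54, adjusted p = 0.00254) and Tapbp (2.52, adjusted p = 0.00125) did.

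IFNb for 8 h raised 6 of 8 members at least 2-fold in WT MEF over the unstimulated array of its own series, beside 4.09% of all genes, with no test. The median difference was 1.91. Tap1 went from 5.15, not above background, to 9.54, at least 15.6-fold. H2-T23 went from 10.02 to 12.10 and Tap2 from 9.31 to 11.47. LPS at 8 h gave a median of 2.75 in WT over its own unstimulated array, with 6 of 8 members at least 2-fold higher, beside 6.28% of all genes. The difference between both inductions was 1.78 for H2-K1 and 1.76 for Tap2, larger with LPS, and those of H2-T23, H2-M3, B2m and Tapbp differed by less than 2-fold. The H2-K1 value starts from a WT array not above background. For Tap1 and Erap1 no difference is read, since the arrays they start from were not above background.

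The p50KO MEF arrays differed from WT across the whole array. As many as 33.9% of all genes were higher and 40.6% lower, and beside this 4 of 8 members were higher and 2 lower. H2-K1 was higher by 3.20 ± 0.13 (adjusted p = 1.94e-06), H2-T23 by 1.44 ± 0.11 (adjusted p = 3.67e-05) and Tap2 by 1.02 ± 0.13 (adjusted p = 0.000326). The other member called higher was Erap1, for which no WT array was above background, and the p50KO array at 8 h stood at least 1.06-fold above that bound. Tap1 was lower by 0.61 on the log2 scale (-0.61 ± 0.14, adjusted p = 0.00569), a value that rests in part on WT arrays not above background, and Tapbp differed by -0.56 ± 0.10 (adjusted p = 0.00157). H2-M3 differed by -0.29 ± 0.15 (adjusted p = 0.122). With the second WT unstimulated array in the fit, H2-T23 (0.90, adjusted p = 0.337) and Tap1 (-0.50, adjusted p = 0.0902) no longer passed. For H2-K1 the p50KO array was at least 7.37-fold above the WT array of the LPS series unstimulated, and at least 6.65-fold above it at 1 h. The unstimulated WT array of the IFNb series read 8.22 for H2-K1, against 8.91 in p50KO and 5.75 in WT of the LPS series. For H2-T23, B2m and Tap2 the unstimulated p50KO array lay between the 2 unstimulated WT arrays. The summed fibroblast markers were 15.06 to 15.11 on the p50KO arrays, 14.63 to 14.85 in WT of the LPS series and 15.69 to 15.7 in WT of the IFNb series. Single markers moved further and in both directions in the fit. Of 8, 3 were higher in p50KO (Col3a1 by 3.44, Col1a2 by 2.43 and Lum by 1.16) and 2 lower (Thy1, -0.96, and Pdgfrb, -0.38). Their part was not tested. Genotype, culture and array set cannot be told apart here.

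The wider class I pathway was followed through lists of related genes. The immunoproteasome cuts peptides that TAP carries. Its subunit genes Psmb8, Psmb9 and Psmb10 and the proteasome activator genes Psme1 and Psme2, 5 in all, rose in BMDM at 8 h of LPS, with a median difference of 1.89. Of all genes, 12.3% were higher and 18.2% lower at that time. Psmb10 rose by 2.68 ± 0.52 (adjusted p = 0.00351) and Psmb9, the neighbour of Tap1, by 2.21 ± 0.46 (adjusted p = 0.00456). In MEF 5 of 5 rose at 8 h as well, beside 12.6% of all genes higher and 23.8% lower, with Psmb9 at 5.34 ± 0.28 (adjusted p = 2.91e-05). Among other class I and class I-like genes 5 of 10 tested rose in BMDM and 0 fell, beside the same 12.3% and 18.2% of all genes. The largest rise was that of H2-M2, which was above background on 0 of 3 unstimulated arrays and stood at least 49.9-fold higher at 8 h of LPS. H2-T24 was likewise above background on 0 of 3 and at least 7.67-fold higher.

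Of 6 tested chaperones and aminopeptidases of the pathway, Tapbpl, a tapasin-related peptide editor, rose at 8 h of LPS in BMDM (2.84 ± 0.59, adjusted p = 0.00454). Thop1, a peptidase that destroys peptides in the cytosol, fell (-1.30 ± 0.32, adjusted p = 0.00859). Tapbpl also rose (3.12 ± 0.21, adjusted p = 8.2e-05) and Thop1 fell (-0.54 ± 0.17, adjusted p = 0.0466) in MEF. Of 10 tested regulators of class I genes 8 rose and 1 fell in BMDM, beside 12.3% of all genes higher and 18.2% lower. Irf1, an interferon regulatory factor, rose by 3.48 ± 0.53 (adjusted p = 0.0014), and Nlrc5, the transactivator of class I genes, by 3.33 ± 0.66 (adjusted p = 0.00375). Stat2, a transducer of interferon signals, rose by 3.75 ± 0.87 (adjusted p = 0.0071), and Relb, an NF-kB subunit, by 3.23 ± 0.50 (adjusted p = 0.00145). Relb was above background on 1 of 3 unstimulated arrays.

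Between LPS and IFNb at 8 h the lists differed in their counts, beside the 17.4% of all genes higher and 24% lower. Of the 10 regulators 7 were higher under LPS and 1 lower, with Relb (3.29 ± 0.40, adjusted p = 0.000112), Irf1 (2.88 ± 0.43, adjusted p = 0.000344) and Nlrc5 (2.85 ± 0.53, adjusted p = 0.00119) among them. Of the 5 immunoproteasome and activator genes 1 was higher, Psmb10 (1.27 ± 0.41, adjusted p = 0.0257). Of the other class I genes 4 of 10 were higher and 2 lower, and of the chaperones and aminopeptidases 2 of 6 were higher and 2 lower. Over the LPS times 1 of 5 immunoproteasome and activator genes was higher in p50KO (Psmb10, 1.11 ± 0.26, adjusted p = 0.0364), and 0 of 10 regulators were called. Of all genes, 3.6% were higher and 3.97% lower in that comparison.

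The members varied together to different degrees. Over the 23 BMDM arrays, which share agents and label series, Pearson's r of a member with the median profile of the others (each centred on its own mean) was 0.795 to 0.953, except for B2m (0.381) and Erap1 (0.176). Over the 10 MEF arrays it was 0.639 (Erap1) to 0.98 (B2m). The genes outside the set whose level followed the members' median profile most closely in BMDM, by Pearson's r, were Eng (0.974), Selenow (0.973), Psme1 (0.965), Pgap2 (0.963) and Tapbpl (0.959). In MEF they were Rnf14 (0.987), Casp1 (0.982), Isg20 (0.981), Casp12 (0.977) and Slc10a6 (0.976). These correlations are descriptions over arrays of a few conditions.

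In BMDM 4 members had a pair of probes above background. The probes of H2-T23, B2m and Tapbp followed each other with r between 0.95 and 0.97 over the 23 arrays. Those of H2-K1 did so with r = 0.51. Both H2-K1 probes rose over 8 h of LPS in WT, by 2.15 and 2.29, but unstimulated IFNARKO minus WT was -1.16 for the brighter probe and 1.14 for the other. The lower resting level of H2-K1 in IFNARKO therefore holds for the brighter probe alone. Heavy-chain genes are close copies of each other, and a probe may also bind transcripts of a related gene.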

How the data were processed

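Illumina MouseRef-8 bead arrays measured RNA of BMDM and MEF. The authors deposited the bead intensity of each probe without normalization, on a linear scale, and beside it a detection p-value, per the file headers. BeadStudio is named, with no version, per the submitters' processing notes. A second deposited set of intensity values, normalized by the authors by a method not given in the sources used here, served as an alternative.

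Background was corrected with normexp (limma's nec, offset 16, negative controls inferred from detection p-values), then quantile normalization and log2 followed within each cell type, over 25697 probes in BMDM and 24613 in MEF, so no test crosses cell types. Probe symbols were those of the platform annotation and were brought up to date with a GRCm38.p6 gene table. Exactly 1 symbol was found for 23978 BMDM and 20974 MEF probes, several for 0 and 1, and none for 1719 and 3638. A gene was tested, by its brightest probe, if 2 or more arrays had that probe at a detection p under 0.01.

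Tests were two-sided limma fits (lmFit, eBayes) with Benjamini-Hochberg adjustment over all genes tested. The 21 WT and p50KO BMDM arrays entered with condition, genotype and array series (CpG label against the others) as terms, with genotype within agent for the p50 comparisons by agent. The array series term was used because the unstimulated arrays come from 2 series. The 8 LPS-series MEF arrays entered with condition and genotype. Residual degrees of freedom were 9, 6 and 3. Errors are standard errors. Groups of 1 array have no test and are read at 2-fold. A probe not above background gives a bound: the bright array over the higher of the dim probe's own value and the lowest value above background. The code was tested on simulated data. All 10 members were named by rule, and of each related list at most 4 genes per comparison, those with the largest differences that passed. The members, lists and tests were chosen with earlier results of these data known. Alternatives were the offset, background correction, normalization, filter, probe rule, series term, added or left-out arrays and the authors' values. Immediate-early genes were chosen from general knowledge to check the LPS times. The fits used limma 3.58.1 in R 4.3.3, and figures and sequences Python 3.11.15 with pandas 2.3.3 and matplotlib 3.10.9.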

Additional observations from a re-analysis of the deposited data

Results flagged for a closer look

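The p50KO minus WT difference of H2-K1 was above 0 at every CpG time, with a mean of 0.13, and below 0 at every IFNb time, with a mean of -0.42. The opposite signs drew attention here. The test of the difference between both agents gave 0.54 ± 0.43 (limma adjusted p = 1.00), so the agents were not shown to differ.

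For B2m the same difference was above 0 at every LPS time, with a mean of 0.38, and not above 0 at any CpG time, with a mean of -0.06. The difference between LPS and CpG was not tested.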

How the results depend on the processing

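Of 268 alternative counts of members called, 247 stayed within 1.5 times of the reported count and 21 moved. Of 83 single-member results, 37 were past the threshold, and among their 1028 alternative values 0 reversed, 31 lost the threshold and 44 gained it. With no filter on detection (16593 genes in BMDM) the LPS 3 h count went from 6 to 1 and the LPS minus IFNb count at 8 h from 3 to 1. Scaling to the median made the latter 6. With no array series term 1 member passed at LPS 1 h. Leaving out single arrays gave 1 to 8 members at LPS 3 h, 0 to 1 at IFNb 3 h, 3 to 5 for LPS minus IFNb and 0 to 1 for p50KO minus WT under LPS. The last count was 2 with the mean of probes, with no background correction and with offset 50, 0 without the 1 h arrays, 0 without the 3 h arrays and 8 without the 8 h arrays. Without the LPS-stimulated arrays, an alternative added after seeing the data, the counts were 1 at CpG 8 h, 2 at IFNb 3 h, 3 at IFNb 8 h and 2 for p50KO minus WT under CpG. With the second WT unstimulated MEF array 3 members passed at LPS 3 h and 1 was lower in p50KO. The cause of these moves was not tested, and the unfiltered fit also adjusts over more genes. The share of all genes called ran from 2.84% to 43.4% at LPS 3 h in BMDM and from 0.0546% to 9.72% for p50KO minus WT under LPS. Leaving out WT unstimulated replicate 2 gives no LPS or IFNb response in BMDM, since it is their only baseline in the series. Genotypes were matched by condition in each fit, and no block by replicate number was possible because the labels carry no replicate numbers. The number of arrays, 1 per condition and genotype, limits the precision of every test.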
